A study of Homo sapiens with 12 samples.

Results

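RNA polymerase III (Pol III) carries a set of subunits found in no other nuclear polymerase, and 9 of their genes are described here: POLR3B, POLR3C, POLR3D, POLR3E, POLR3F, POLR3G, POLR3GL, POLR3K and CRCP. They were chosen by their place in the enzyme, as the Pol III-specific subunits other than the catalytic one, and their values were summed over all transcripts matched to each gene symbol. The 9 genes stood among 34318 genes with a matched transcript, and all 9 passed the filter on low counts in both experiments. The cells were HEK293T, a widely used human line derived from embryonic kidney, labelled epithelial, that takes up siRNA readily. Each library was a strand-specific mRNA library, and 3 libraries were made per group, 12 in all. One experiment compared lipofection of a control siRNA (siControl) with that of an siRNA directed at POLR3A (siPOLR3A), 2 days after transfection. The other compared 4 hours of vehicle (DMSO, 0.1%) with 4 hours of ML60218 at 25 µM, a small molecule inhibitor of Pol III. Nothing stated that the 3 libraries of a group came from separate cultures, so the p-values measure the spread between these libraries, which may be technical.

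Pol III transcribes short non-coding RNAs, among them the transfer RNAs, the 5S ribosomal RNA and the U6 small nuclear RNA. POLR3A, the largest subunit, forms the catalytic centre together with POLR3B. Around this core sit POLR3K, which takes part in termination and transcript cleavage, a heterotrimer of POLR3C, POLR3F and either POLR3G or POLR3GL that acts in initiation, a TFIIF-like dimer of POLR3D and POLR3E, and the stalk, to which CRCP belongs. POLR3G and POLR3GL are paralogs that exclude each other from the enzyme, and POLR3G is known for its high level in pluripotent and transformed cells.

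The libraries held between 37008325 and 49479476 estimated reads, of which 91.0% to 91.6% fell on transcripts that could be matched to a gene. POLR3A, the target of the siRNA, stood at 92.2, 93.5 and 86.8 CPM (read counts scaled to library size and composition within an experiment) in the siControl libraries and at 19.25, 19.04 and 14.6 CPM in the siPOLR3A libraries, which do not overlap. POLR3A also fell by 0.38 on the log2 scale with ML60218 (edgeR's quasi-likelihood test, Benjamini-Hochberg adjusted p = 0.000229). With unmatched transcripts that neighbour POLR3A in the table added, this change was -0.17 (adjusted p = 0.00240, edgeR), and the TPM means were 28.4 in DMSO and 28.8 in ML60218. Of the epithelial markers used to check the label, KRT18 ranged from 24.5 to 36.7 TPM (a level per transcript length). KRT8 (2.08 to 6.18 TPM), EPCAM (1.32 to 4.09 TPM) and CDH1 (1.31 to 4.5 TPM) were much lower. The kidney lineage factor PAX2 ranged from 3.36 to 5.19 TPM, whereas the adult kidney marker UMOD did not exceed 0.0572 TPM. The leukocyte marker PTPRC was listed at 0 in all 12 libraries. The fibroblast marker COL1A1 ranged from 18.2 to 28.07 TPM, and the 4 markers of other cell types together summed to 20.1 to 21.5 TPM in siControl, 23.9 to 28.2 in siPOLR3A, 18.3 to 19.96 in DMSO and 18.7 to 21.2 in ML60218. Their part in the results was not tested. In bulk RNA, fewer cells that express a gene and less of its RNA per cell cannot be told apart.

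All 9 subunit genes were expressed in every library. Over the 4 groups the mean level ranged from 11.9 TPM (POLR3C, siControl) to 78.4 TPM (POLR3E, ML60218). POLR3E led in the siControl libraries with 60.7 ± 1.04 TPM (SD, n = 3), followed by POLR3K with 48.4 ± 2.80 TPM. POLR3GL (25.4 ± 0.454 TPM), POLR3G (25.4 ± 3.15 TPM) and CRCP (23.5 ± 1.98 TPM) came next. The library range of POLR3G overlapped both others, while POLR3GL and CRCP did not overlap each other. POLR3D (19.6 ± 1.19 TPM) and POLR3B (18.6 ± 0.673 TPM) also overlapped each other. POLR3F (13.2 ± 1.27 TPM) and POLR3C (11.9 ± 0.574 TPM) were lowest, without overlap between them. In the DMSO libraries the ranges of POLR3E (63.6 ± 4.27 TPM) and POLR3K (62.0 ± 4.24 TPM) overlapped, and so did each pair of neighbours from POLR3GL (23.4 TPM) down to POLR3G (18.7 TPM). These orders are those of matched transcripts. With unmatched neighbouring transcripts added, siControl means were 45.3 TPM for POLR3G, 23.0 TPM for POLR3C and 15.5 TPM for POLR3F. POLR3G (42.65 to 47.24 TPM) then overlapped POLR3K (46.37 to 51.6 TPM), and POLR3C lay above POLR3D and POLR3B.

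**Figure D1:**
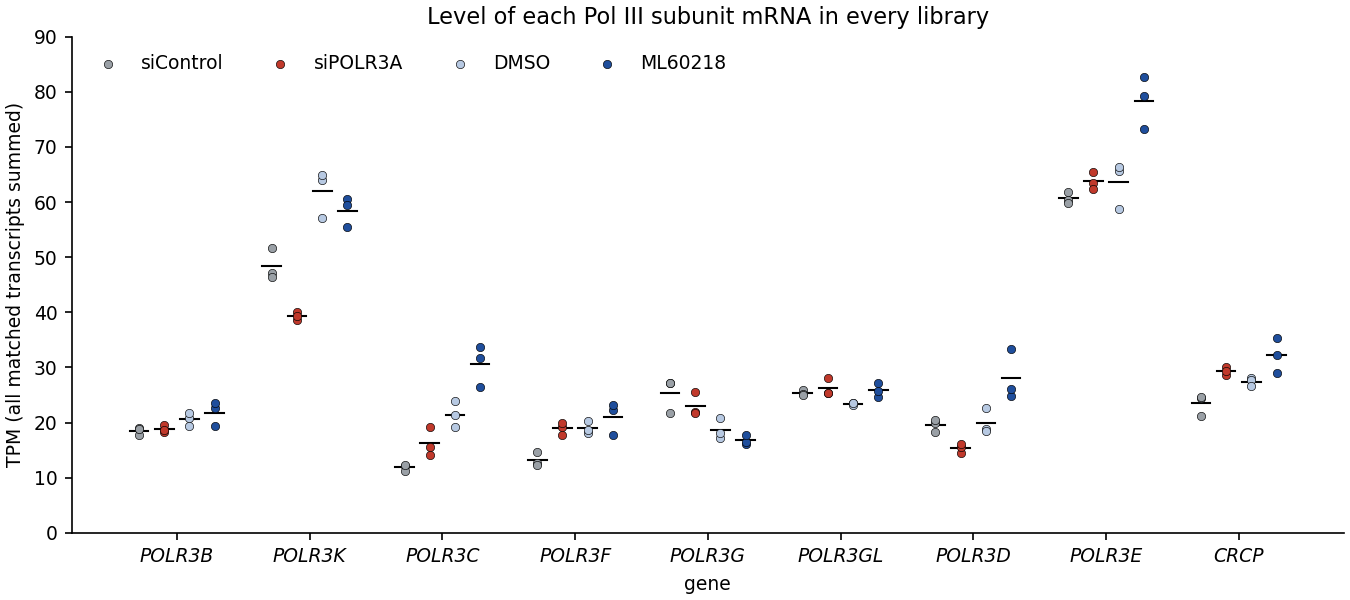
Level of the 9 subunit genes in each of the 12 libraries, in TPM summed over all matched transcripts; points are libraries and bars are means of 3. POLR3E and POLR3K lie above the other 7 genes in every library, and POLR3F and POLR3C are lowest in the siControl group.

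The first place of POLR3E rested on transcripts that do not encode the protein. Transcripts annotated as protein-coding held 32.6% ± 2.6 (SD, n = 12) of the TPM of POLR3E, and between 28.8% and 37.5% by library. Counted over these transcripts only, POLR3E stood at 20.6 ± 1.40 TPM in siControl, and POLR3K led with 44.7 ± 3.05 TPM. For POLR3D the protein-coding share was 63.6% and for POLR3C 74.9%, averaged over 12 libraries. The other 6 genes had 91.1% or more of their TPM in protein-coding transcripts, with POLR3G at 100.0%.

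The 2 control groups also differed from each other in several subunits. POLR3C was 1.81 times as high in DMSO as in siControl (21.5 against 11.9 TPM), POLR3F 1.44 times (19.03 against 13.23 TPM) and POLR3K 1.28 times (62.0 against 48.4 TPM). POLR3G was lower in DMSO, at 0.737 times its siControl level. Ranges overlapped only for POLR3D and POLR3E. With unmatched neighbouring transcripts added, POLR3C stood at 34.6 TPM in DMSO and 23.0 TPM in siControl. POLR3F then stood at 22.1 and 15.5 TPM, and POLR3G at 30.25 and 45.3 TPM, in the same order. These groups differ in transfection, vehicle and time, which cannot be told apart here, and no test was made across the experiments' controls.

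After the POLR3A siRNA, the subunit genes did not move as 1 group. POLR3F and CRCP rose, POLR3K and POLR3D fell, and the other 5 (POLR3B, POLR3C, POLR3E, POLR3G and POLR3GL) did not pass the test. Thus 4 of 9 were called at an adjusted p under 0.05 (edgeR's quasi-likelihood test, Benjamini-Hochberg over all genes tested), where 56.6% of the 15404 genes tested were called, 27.4% higher and 29.2% lower. The same 4 genes had CPM ranges that did not overlap between the groups, against 63.4% of all genes tested. Neither count of members was above the share for all genes. The log2 fold changes of the members ran from -0.33 to 0.50 with a median of 0.005, which was also the median over all genes, and their median size was 0.19 against 0.23.

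With ML60218, POLR3D, POLR3E and POLR3C rose and POLR3K fell. These 4 of 9 compare with 39.0% of 15461 genes called, 18.1% higher and 20.9% lower, so the members' share was close to that of all genes. POLR3D, POLR3E and POLR3K had CPM ranges that did not overlap between the groups, a count of 3 of 9 against 51.9% of all genes. The members' log2 fold changes ran from -0.31 to 0.29, with a median of 0.002 against 0.005 over all genes.

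Some subunits responded differently to the siRNA and to the inhibitor. The test of the difference itself (siPOLR3A effect minus ML60218 effect, all 12 libraries) called 4 of 9 members, 2 higher and 2 lower, against 50.9% of 15780 genes (24.5% higher, 26.4% lower), again a share close to that of all genes. The difference was -0.42 (SE 0.0638, adjusted p = 4.37e-05, edgeR) for POLR3D, which fell after the siRNA and rose with ML60218. For POLR3E it was -0.20 (SE 0.0523, adjusted p = 0.00410, edgeR), a call that was lost with an offset for isoform length (-0.10, adjusted p = 0.213). POLR3F (0.50, SE 0.0947, adjusted p = 0.000347, edgeR) and CRCP (0.21, SE 0.0653, adjusted p = 0.0130, edgeR) stood higher after the siRNA than with the inhibitor. POLR3K was called lower in both experiments, and the difference between its effects was -0.10 with a 95% interval from -0.24 to 0.05. Agent, duration and control differ between the experiments, and their parts in these differences cannot be told apart.

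**Figure D2:**
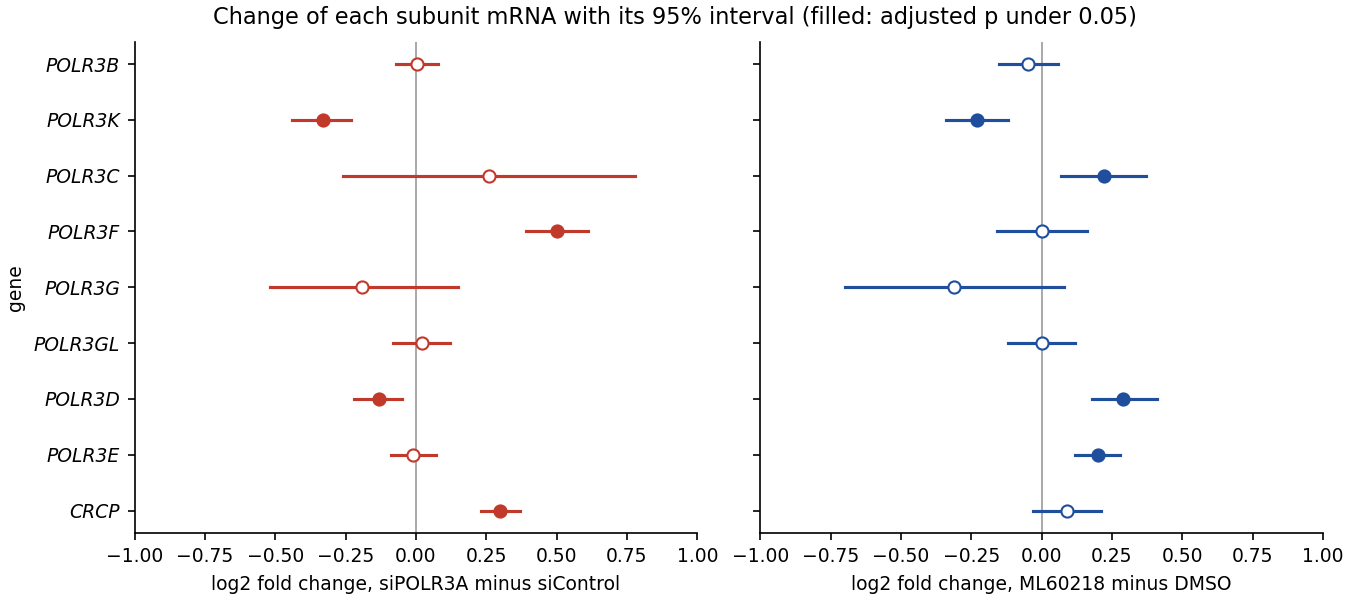
Log2 fold change of each subunit gene with its 95% interval, after the POLR3A siRNA (left) and with ML60218 (right), from 3 libraries per group; filled points have an adjusted p under 0.05. POLR3F lies highest on the left at 0.50, POLR3D lies left of 0 after the siRNA and right of 0 with the inhibitor, and POLR3K lies left of 0 in both.

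Of the core subunits, POLR3B (ENSG00000013503, chromosome 12, GRCh38 106357658 to 106510198), the partner of POLR3A in the active centre, was steady. It measured 69.5, 69.5 and 71.6 CPM in siControl and 68.4, 73.7 and 69.3 CPM in siPOLR3A, so the groups overlapped while POLR3A itself fell by 2.36 on the log2 scale (SE 0.108, adjusted p = 1.94e-05, edgeR). The 95% interval of the POLR3B change ran from -0.07 to 0.08 after the siRNA and from -0.15 to 0.06 with ML60218. A single transcript, POLR3B-201, held 98.0% of its TPM.

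POLR3K (ENSG00000161980, chromosome 16, 46407 to 53628, minus strand) was the member that fell in both experiments. Its level was 35.4, 37.2 and 40.1 CPM in siControl and 29.5, 30.4 and 29.7 CPM in siPOLR3A, all 3 below the lowest control. On the log2 scale this was -0.33 (SE 0.0483, adjusted p = 4.08e-05, edgeR). With the inhibitor it went from 48.4, 49.1 and 44.9 CPM in DMSO to 40.1, 41.8 and 39.4 CPM in ML60218, again without overlap, or -0.23 on the log2 scale (SE 0.0488, adjusted p = 0.00478, edgeR). On the TPM scale the ranges of the second pair overlapped, with 57.1 to 64.9 TPM in DMSO and 55.5 to 60.5 TPM in ML60218. The gene shares 153 of its 1889 exonic bases with SNRNP25 on the opposite strand, and whether the counting used the strand was not given in the sources used here.

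In the heterotrimer, POLR3F (ENSG00000132664, chromosome 20, 18467127 to 18484643) had the largest change of the 9 after the siRNA. It measured 22.7, 22.1 and 21.2 CPM in siControl and 31.5, 29.2 and 32.6 CPM in siPOLR3A, and each siPOLR3A library was above every control. The fold was 1.42, or 0.50 on the log2 scale (SE 0.0531, adjusted p = 2.00e-06, edgeR). With the inhibitor the groups overlapped (33.1, 31.0 and 32.6 CPM in DMSO, 28.4, 34.3 and 33.99 CPM in ML60218) and the 95% interval ran from -0.16 to 0.16. On the TPM scale, which covers both experiments, the siControl libraries were the low ones, with 13.2 ± 1.27 TPM against 18.98 ± 1.13 in siPOLR3A, 19.03 ± 1.15 in DMSO and 21.1 ± 2.91 in ML60218. DZANK1 lies on the opposite strand and shares 155 of 2928 exonic bases.

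POLR3F was also the only member whose main transcript held, in its 3′ untranslated region, the word GACGTA, 1 of 2 words of 6 bases that an earlier analysis of these data had set beside the siRNA comparison. The site is shown because the scanned transcripts of the other 8 genes did not hold the word, which is in capitals, on the plus strand of chr20:18483658-18483687 (GRCh38, GENCODE 29 transcript).
POLR3F-201: ttcacaataatgGACGTAgacttgctgcta
The word lies 112 bases after the stop codon, in the last of 9 exons. POLR3F-201 has 2416 bases in GENCODE 29, the version scanned, but is listed at 2156 bases in the deposited data. Only this strand of the 3′ untranslated region was searched. GACGTA occurred in 3.66% of the 14190 genes scanned, in 11.1% of those called higher by at least 2-fold after the POLR3A siRNA, in 5.99% of those called higher by less, in 3.05% of those not called, and in 1.75% and 2.09% of those called lower by at least 2-fold and by less. The other word, GAGGGA, occurred in 0 of the 9 members, in 33.0% of all genes scanned and in 29.6% of those not called. It occurred in 66.1% and 39.4% of those called lower by at least 2-fold and by less. Among those called higher by at least 2-fold and by less, it occurred in 32.8% and 28.7%. Both words were taken from an earlier analysis of these same data, so these shares are a description and not a separate test. They were not adjusted for the length of the 3′ untranslated region. The siRNA sequences were not given in the sources used here, and the part of GACGTA in the POLR3F values was not tested.

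POLR3C (ENSG00000186141, chromosome 1, 145824088 to 145842505), which lies near POLR3GL on the chromosome, had the widest spread of the members after the siRNA. It measured 22.1, 16.7 and 20.1 CPM in siControl and 22.6, 28.6 and 19.1 CPM in siPOLR3A, with overlap, and the 95% interval of the log2 fold change ran from -0.26 to 0.78. With ML60218 it rose from 36.9, 41.7 and 34.7 CPM to 41.6, 44.4 and 45.9 CPM, where the lowest treated library lay just below the highest control. This was a change of 0.22 on the log2 scale (SE 0.0688, adjusted p = 0.0302, edgeR). This call was lost without DMSO replicate 1 or 3, without ML60218 replicate 2 or 3, over protein-coding transcripts only and with all 12 libraries in 1 fit, where the adjusted p ranged from 0.0893 to 0.257.

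The transcripts of POLR3C did not keep their shares. POLR3C-204, a processed transcript without a coding sequence, held 0.0%, 0.0% and 7.3% of the gene's TPM in siControl and 18.3%, 20% and 27.6% in siPOLR3A. Its share was 15.2%, 16.8% and 8.0% in DMSO and 23.4%, 24.0% and 26.9% in ML60218. It was thus higher in every siPOLR3A and every ML60218 library than in any library of the matching control, but its level did not pass the test over all transcripts in either experiment (adjusted p = 0.235 and 0.142, edgeR). Another 16 transcripts beside POLR3C in the table, with a summed mean of 13.3 TPM, had no match in the annotation. With them added, the siControl libraries held 22.6, 23.2 and 23.4 TPM and the siPOLR3A libraries 28.1, 29.9 and 29.2 TPM, and the log2 fold change of 0.20 was called (adjusted p = 0.000176, edgeR). An offset for isoform length also brought the change past the test, at 0.43 (adjusted p = 0.00858, edgeR).

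POLR3G (ENSG00000113356, chromosome 5, 90471748 to 90514553) and POLR3GL (ENSG00000121851, chromosome 1, 145964702 to 145978848) fill the same place in the heterotrimer, and neither passed the test in either experiment. POLR3GL stood at 27.0, 28.5 and 27.2 CPM in siControl, 29.1, 27.7 and 27.4 CPM in siPOLR3A, 25.0, 24.6 and 26.01 CPM in DMSO and 26.2, 25.3 and 24.2 CPM in ML60218. Both pairs of groups overlapped, and the 95% intervals ran from -0.08 to 0.12 and from -0.12 to 0.12. POLR3G varied more between libraries of a group. It measured 47.4, 39.1 and 47.0 CPM in siControl, 39.4, 34.3 and 43.6 CPM in siPOLR3A, 22.6, 29.3 and 33.6 CPM in DMSO and 25.8, 21.8 and 21.4 CPM in ML60218, with 95% intervals from -0.52 to 0.15 and from -0.70 to 0.08. POLR3GL shares 382 of its 1799 exonic bases with AC243547.3 on the same strand, and POLR3G shares 260 of 4019 with MBLAC2 on the opposite strand, so both levels and their ratio carry that uncertainty. Without DMSO replicate 1, the log2 fold change of POLR3G with ML60218 was -0.45 and was called (adjusted p = 0.0107, edgeR). DESeq2 also called it, at -0.31 (adjusted p = 0.0416), and so did edgeR with an offset for isoform length, at -0.30 (adjusted p = 0.0298).

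A large part of the POLR3G signal lay outside the matched transcripts. A single transcript of 3290 bases that sits between POLR3G transcripts in the table, but has no entry in GENCODE 29, held 18.9, 20.9 and 20.03 TPM in siControl and 17.0, 18.7 and 14.7 TPM in siPOLR3A. It held 14.5, 11.07 and 9.06 TPM in DMSO and 11.15, 13.97 and 13.7 TPM in ML60218, with overlap, and all 3 ML60218 libraries stood above 2 of the 3 DMSO libraries. In DMSO it was highest in the library where the matched POLR3G transcripts were lowest in CPM. With this transcript added, POLR3G stood at 46.1, 42.6 and 47.2 TPM in siControl and 39.0, 40.4 and 40.3 TPM in siPOLR3A, which no longer overlapped. Its log2 fold change was then -0.23 (adjusted p = 8.16e-07, edgeR) after the siRNA and -0.14 (adjusted p = 0.0146, edgeR) with ML60218, where the TPM ranges of the groups still overlapped (29.2 to 31.7 and 27.2 to 31.6 TPM). The transcript was assigned from its place between POLR3G entries, not by identifier.

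The log2 ratio of POLR3G to POLR3GL, in TPM, moved the same way. It averaged -0.01 ± 0.18 (SD, n = 3) in siControl and -0.19 ± 0.19 in siPOLR3A, a difference of -0.18 (two-sided exact permutation test, p = 0.2). In DMSO it averaged -0.33 ± 0.14 and in ML60218 -0.62 ± 0.02, a difference of -0.30 with all 3 treated libraries below all 3 controls (exact permutation p = 0.1, the smallest that 3 against 3 allows). From estimated counts in place of TPM the second difference was -0.29, the groups overlapped and the exact permutation p was 0.2. Leaving out each library in turn moved the first difference between -0.28 and -0.09. With the unmatched transcript added the ratio favoured POLR3G in every library, at 0.83 ± 0.08, 0.61 ± 0.11, 0.37 ± 0.05 and 0.20 ± 0.05 in the order siControl, siPOLR3A, DMSO and ML60218. Both differences, -0.23 and -0.17, then came without overlap and with the same smallest exact permutation p of 0.1. So which paralog was the more abundant turned on 1 transcript, while the direction of the 2 differences did not.

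**Figure D3:**
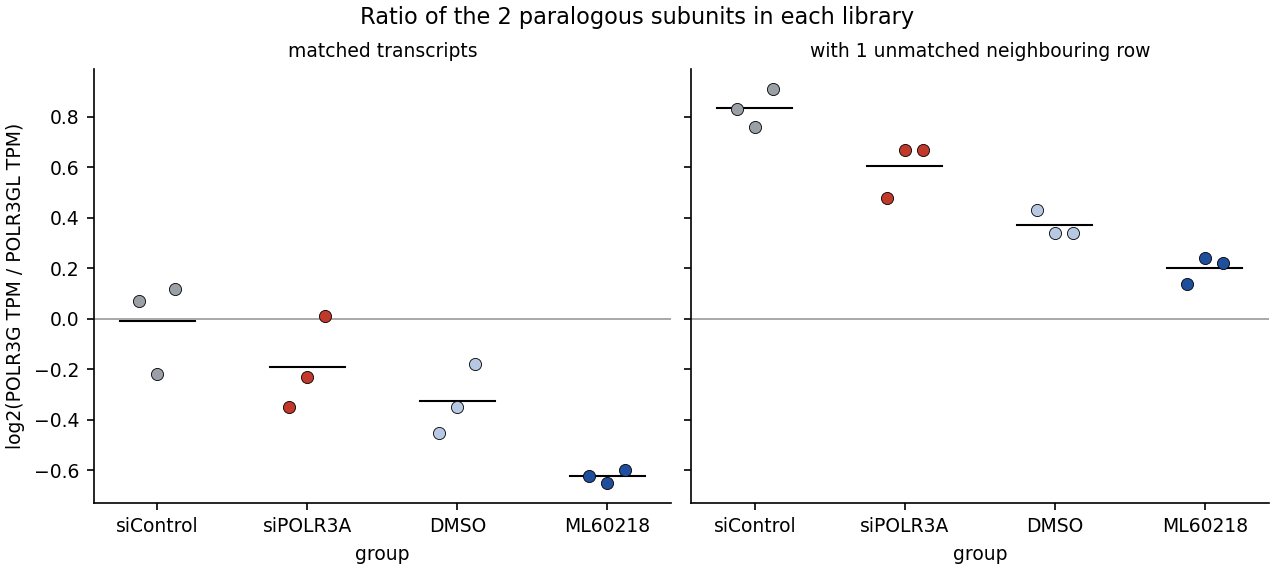
Log2 ratio of POLR3G to POLR3GL TPM in each library, from matched transcripts (left) and with the unmatched neighbouring transcript added to POLR3G (right); points are libraries and bars are means of 3. The ML60218 libraries lie below the DMSO libraries in both panels, and all 12 points on the right are above 0.

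Over the 12 libraries, the genes whose log2 CPM ran most like POLR3G among 10293 protein-coding genes were ELMOD1 (Pearson r = 0.955), TSPAN18 (0.944) and ASIC1 (0.938). For POLR3GL, HOXB4 (0.947) and EPHA2 (0.935) were among the 3 most alike. The 12 points fall into 2 experiments and 4 groups that these genes share, and the values are a description.

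The mRNAs of POLR3D and POLR3E, which encode the TFIIF-like dimer, rose with the inhibitor. POLR3D (ENSG00000168495, chromosome 8, 22245104 to 22254600) went from 45.9, 46.9 and 45.7 CPM in DMSO to 53.9, 55.3 and 60.5 CPM in ML60218, with every treated library above every control. The change of 0.29 on the log2 scale (SE 0.0495, adjusted p = 0.00159, edgeR) was called under all alternatives tried. POLR3E (ENSG00000058600, chromosome 16, 22297375 to 22335103) went from 74.9, 76.0 and 74.5 CPM to 84.2, 85.2 and 89.3 CPM, also without overlap, or 0.20 on the log2 scale (SE 0.0369, adjusted p = 0.00258, edgeR). Over protein-coding transcripts only, the POLR3E change was 0.18 and was not called (adjusted p = 0.184, edgeR).

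After the siRNA POLR3D was called lower and POLR3E was not called, and the difference between the pair was not tested. POLR3D measured 48.1, 44.7 and 44.5 CPM in siControl and 41.9, 41.6 and 41.6 CPM in siPOLR3A, with the 3 knockdown libraries below the controls and almost equal to each other. Its log2 fold change of -0.13 (SE 0.0380, adjusted p = 0.00798, edgeR) was not called when libraries were scaled by total counts (-0.08) or by the upper quartile (-0.07), nor over protein-coding transcripts only (-0.01), and was -0.36 with an offset for isoform length. POLR3E overlapped between the groups, at 77.1, 85.6 and 79.7 CPM in siControl and 81.2, 79.1 and 80.5 CPM in siPOLR3A, with a 95% interval from -0.09 to 0.07. Over its protein-coding transcripts only, the log2 fold change of POLR3E was -0.17 (adjusted p = 0.0438, edgeR).

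On the TPM scale, much of the level of both genes came from transcripts that keep an intron or lack a coding sequence. POLR3D-203, a retained-intron transcript that spans 22247221 to 22250159, held 33.3% of the gene's TPM on average and between 21.4% and 40.6% by library. It stood at 6.58, 6.28 and 7.94 TPM in siControl and at 5.51, 3.64 and 3.46 TPM in siPOLR3A, lower in all 3, though its test over all transcripts was not passed (adjusted p = 0.0936, edgeR). In POLR3E, the retained-intron transcript POLR3E-213 (22331435 to 22334441, at the 3′ end of the gene) held 29.8% and the short processed transcript POLR3E-210 (22302974 to 22309945, 449 bases) held 19.7%. The 2 largest protein-coding transcripts of POLR3E, POLR3E-203 and POLR3E-209, held 13.9% and 10.7%. By share of the gene's reads, on which the CPM values and tests rest, these short transcripts weighed less: POLR3D-203 held 11.8%, POLR3E-213 23.7% and POLR3E-210 3.3%. How reads are split between transcripts of a gene is itself an estimate, and its error is not in the table.

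**Figure D4:**
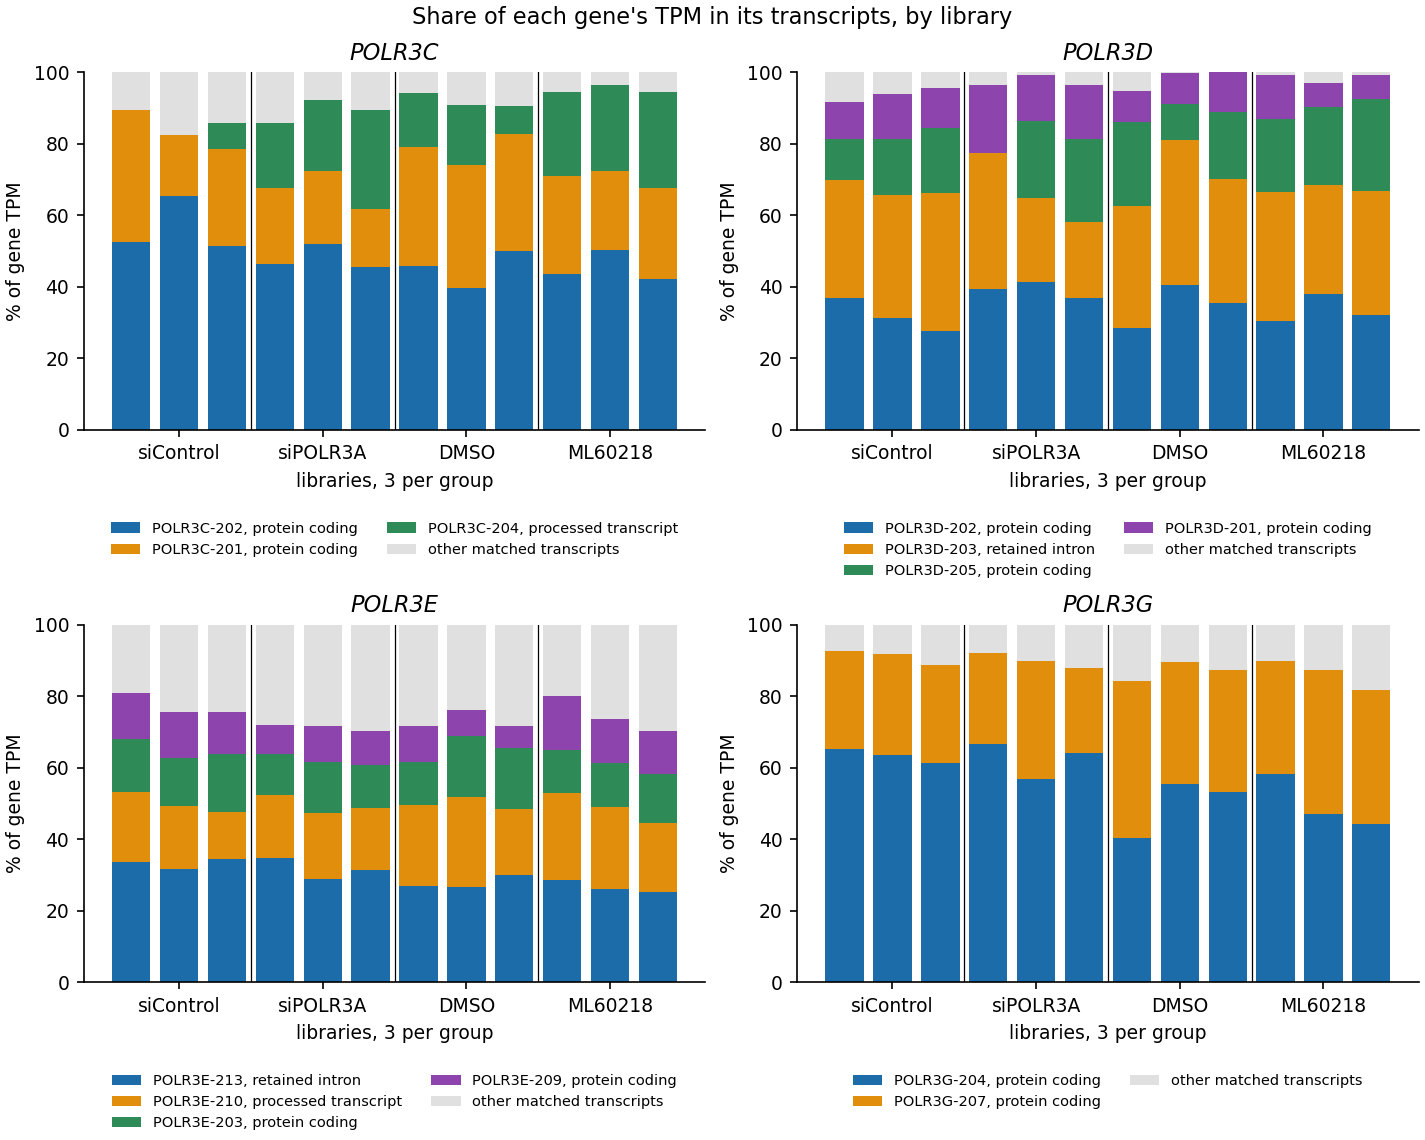
Share of each gene's TPM in the transcripts that hold at least 10% of it on average, in percent, for POLR3C, POLR3D, POLR3E and POLR3G; each bar is 1 library and grey is the sum of the other matched transcripts. POLR3C-204 (green) is listed at 0 in 2 siControl libraries and holds 18.3% to 27.6% in siPOLR3A, and the retained-intron transcript POLR3E-213 (blue) takes the largest share of POLR3E in each of the 12 libraries.

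CRCP (ENSG00000241258, chromosome 7, 66114604 to 66154568), the stalk subunit also known from its part in signalling by the calcitonin gene-related peptide receptor, rose after the siRNA. It measured 47.7, 46.0 and 48.7 CPM in siControl and 58.6, 58.6 and 58.0 CPM in siPOLR3A, with a gap between the groups wider than the spread of either. The change was 0.30 on the log2 scale (SE 0.0333, adjusted p = 3.25e-06, edgeR). With ML60218 it measured 54.2, 59.8 and 62.8 CPM against 54.9, 55.4 and 55.6 CPM in DMSO, so 1 treated library was below the controls and 2 above. The 95% interval of that change ran from -0.03 to 0.21, and without ML60218 replicate 1 it was called at 0.15 (adjusted p = 0.0137, edgeR). CRCP shares 359 of its 3540 exonic bases with AC068533.4 on the same strand, so its counts carry that uncertainty.

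At the level of transcripts, 58 were matched to the 9 genes and 19 held at least 10% of their gene's TPM. After the siRNA 3 of these 19 were called, against 11.3% of the 69805 transcripts tested. They were the main transcripts of 3 genes called as a whole: POLR3F-201 (0.55, adjusted p = 0.00318, edgeR), CRCP-203 (0.29, adjusted p = 0.00517, edgeR) and POLR3K-201 (-0.38, adjusted p = 0.0141, edgeR). With ML60218 edgeR called 0 of 19, against 2.09% of 70417. An unadjusted edgeR p under 0.05 was reached by 5 of 19 with ML60218 and also by 5 of 19 after the siRNA. The share of all transcripts under that unadjusted threshold is not given, so these counts have nothing to be set against. No other tool was run on transcripts.

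The calls on 3 genes after the siRNA (POLR3F, CRCP and POLR3K) and on 2 with ML60218 (POLR3D and POLR3K) held under every alternative tried. Calls on the other members were gained or lost under some scalings, other ways of counting a gene, another tool or the loss of 1 library. GC content and transcript length, when their trend was removed per library, brought POLR3B (0.10) and POLR3GL (0.11) past the test after the siRNA, and POLR3B (0.22) past the test of the difference.

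**Figure D5:**
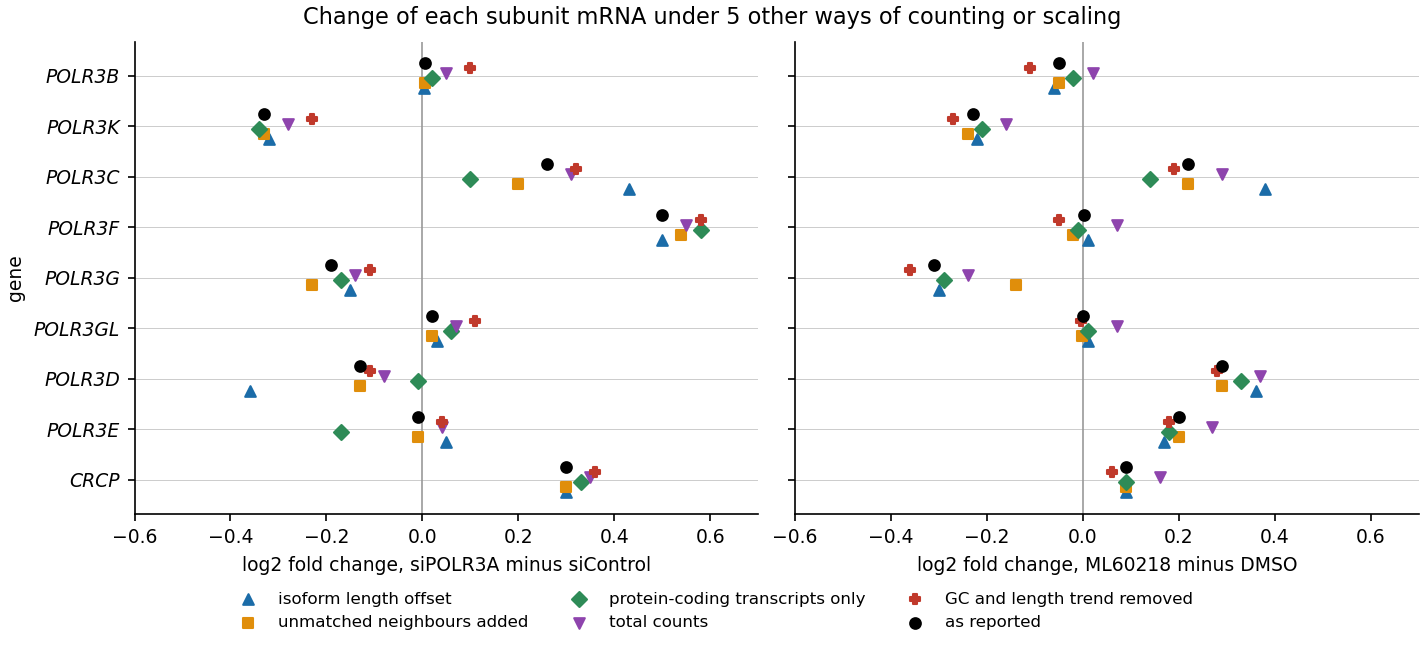
Log2 fold change of each subunit gene as reported (black) and under 5 other ways of counting or scaling, after the POLR3A siRNA (left) and with ML60218 (right). Within each panel the points of POLR3C, POLR3D, POLR3G, POLR3K and CRCP stay on 1 side of 0. Those of POLR3D after the siRNA run from -0.36 to -0.01.

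The rest of the Pol III machinery gives the surroundings of these values. Of 30 listed genes, which include the subunits shared with the other polymerases, the initiation factors TFIIIB, TFIIIC and TFIIIA, the snRNA activating complex SNAPc, the repressor MAF1 and assembly partners, 29 were tested, and BDP1 was not. After the siRNA 11 rose and 10 fell, against 27.4% and 29.2% of all genes tested, with a median log2 fold change of -0.001. SNAPC2 had the largest rise (0.53) and SNAPC3 the largest fall (-0.92), both subunits of SNAPc. With ML60218 4 rose and 13 fell, against 18.1% and 20.9% of all genes tested, with a median of -0.099, and the extremes were SNAPC1 (0.31) and POLR2L (-0.67). All 5 subunits shared by the 3 polymerases were called lower with ML60218, whereas of the 9 Pol III-specific members only POLR3K was called lower.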

How the data were processed

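Messenger RNA of 12 HEK293T libraries was analysed. The deposited table gives estimated counts and TPM values of each transcript in each library, in columns named as the program salmon writes them, per the file headers. Its version, settings and transcript release are not given in the sources used here. The submitters' processing notes name hg38, bcl2fastq 2.20, Trim Galore and DESeq2.

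Transcripts were assigned to genes by unversioned identifier in GENCODE 29 (GRCh38), which matched 158359 of 194142 (81.6%). Unmatched transcripts stayed out of library sizes and tests. Gene values are sums of the estimated counts, rounded to whole numbers. Each comparison used edgeR 4.0.16 in R 4.3.3 (quasi-likelihood, robust, TMM scaling, filterByExpr with a minimum count of 10) on its own 6 libraries, and the difference of effects used all 12. P-values were two-sided and adjusted by Benjamini-Hochberg over all genes or transcripts tested. CPM values are scaled by TMM, and the TPM values are the deposited ones summed per gene. Levels between genes are compared in TPM only. Intervals are 95% intervals of the fit.

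The text names all 9 members, POLR3A, transcripts with at least 10% of a member's TPM, and the largest called rise and fall among 30 other Pol III pathway genes. The shared subunits were singled out after their values were seen. Some items are not reported here. Likeness used protein-coding genes whose log2 CPM averaged 3 or more. The members and lists were chosen with earlier results of these data known. The test was tested on simulated data: of 100 genes changed by 0.3 on the log2 scale, 55% were recovered in the siRNA comparison and 41% in the ML60218 comparison, and of those changed by 1.0, 100% in each. False calls numbered 9 and 10. The simulation gave all genes the same dispersion and changed far fewer genes than were called in the data. Its rates therefore do not give the recovery of the reported tests.

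Alternatives were RLE, total-count and upper-quartile scaling, no filter, DESeq2 1.42.0, the replicate number as a block, an offset for isoform length, removal of GC and length trends, unmatched neighbouring transcripts added to a gene, 1 fit of all 12 libraries, and leaving out each library. Counting protein-coding transcripts only was added after seeing the data.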

Additional observations from a re-analysis of the deposited data

Results flagged for a closer look

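Each of the following differed between the experiments by the test of the difference itself (siPOLR3A effect minus ML60218 effect, log2 scale, edgeR's quasi-likelihood test on 12 libraries), where 50.9% of all genes tested were also called. Among the subunits, POLR3D differed by -0.42, POLR3E by -0.20, POLR3F by 0.50 and CRCP by 0.21. The targeted gene POLR3A differed by -1.98. Of the other Pol III pathway genes named, POLR2L differed by 0.91, SNAPC1 by -0.50, SNAPC2 by 0.71 and SNAPC3 by -0.99. Agent, duration and control group differ between the experiments and cannot be told apart.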

How the results depend on the processing

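For the members and POLR3A, 560 values were recomputed: 499 kept direction and side of the threshold, 13 gained the call, 11 lost it and 37 turned direction. The calls on POLR3F, CRCP and POLR3K after the siRNA, and on POLR3D and POLR3K with ML60218, were kept under all alternatives. The members called with ML60218 numbered 2 over protein-coding transcripts only, where 5055 of all genes were called, against 6029 as reported. With the replicate number as a block, 1 member transcript was called after the siRNA (POLR3F-201) and POLR3G was called (-0.19, adjusted p = 0.00164, edgeR). Same-numbered libraries did not deviate together (correlations from -0.093 to -0.012), so the numbers were not taken to pair libraries. Leaving out each library in turn gave 4 members called after the siRNA and 3 to 5 with ML60218, and 2 to 4 member transcripts after the siRNA. In these fits 7998 to 8361 of all genes were called after the siRNA and 4159 to 6501 with ML60218. Another scaling moved the split of calls: 48.4% of calls after the siRNA were higher, against 58.7% by the upper quartile, and 46.4% with ML60218, against 67.0% by total counts and 58.6% by the upper quartile.

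All values that turned direction belong to changes that were not called either way. After the siRNA, POLR3E was 0.04 by total counts, 0.05 by the upper quartile, 0.05 with the isoform length offset and 0.04 with GC and length trends removed, and POLR3B was -0.0017 with no filter. With ML60218, POLR3B was 0.02 by total counts. POLR3F was -0.0043 with no filter, -0.0021 with the block, -0.05 with trends removed, -0.02 with neighbours added and -0.01 over protein-coding transcripts. POLR3GL was -0.01 with no filter, -1.8e-05 with the block, -0.0049 with trends removed and -0.0021 with neighbours added. For the difference of effects, POLR3K was 0.03 with trends removed, POLR3C -0.03 and POLR3G -0.10 with neighbours added, and POLR3C -0.04 over protein-coding transcripts. Over the fits that left out 1 library, the direction turned within ranges of -0.03 to 0.02 (POLR3B), -0.04 to 0.03 (POLR3E) and -0.0042 to 0.05 (POLR3GL) after the siRNA, -0.04 to 0.08 (POLR3F) and -0.03 to 0.03 (POLR3GL) with ML60218, and -0.13 to 0.17 (POLR3C), -0.0045 to 0.27 (POLR3G) and -0.01 to 0.05 (POLR3GL) for the difference. The cause was not tested.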
